A study of Macaca mulatta with 6 samples.

Results

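The genes described here are 9 regulators that act with or beside the retinoid X receptors (RXRs), read in luteal cells of the rhesus macaque. They are the fatty acid receptors PPARA, PPARD and PPARG, the coactivator PPARGC1A, the pregnane X receptor NR1I2, the farnesoid X receptor NR1H4 with its target and repressor NR0B2, the retinoic acid receptor RARA and the vitamin D receptor VDR. Every probe set that the platform annotation gives to one of these symbols was taken, which made 18 of the 52766 probe sets and 9 of the 14132 named genes tested. RARA had 6 probe sets, NR1H4 and VDR had 3 each, and the other members had 1.

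The series title names the targets of the liver X receptors (LXRs) as the question. The cells came from corpora lutea, the glands that form from ovulated follicles and secrete progesterone, taken 12 days after the luteinizing hormone surge, and were plated on fibronectin without serum. From plating they were treated for 24 h with 0.1% dimethyl sulfoxide (DMSO, the vehicle) or with 1 µM T0901317, a synthetic LXR agonist, on 3 arrays per group. The replicates are described as biological and paired, with nothing on the animals behind them. The p-values then measure the spread of differences between paired arrays, pooled in part over probe sets. Whether that is a spread between animals is not stated.

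Most of these receptors work as heterodimers with an RXR on DNA, where a ligand exchanges corepressors for coactivators. PPARs bind fatty acids, NR1I2 (PXR) foreign compounds and steroids, NR1H4 (FXR) bile acids, RARA retinoic acid and VDR active vitamin D. LXRs draw on the same RXRs. T0901317 is known to be able to activate PXR and FXR as well as the LXRs, so the presence of these receptors and the behaviour of their targets bear on how an array of treated cells is read.

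Values are log2 levels made by RMA (robust multi-array average), and a probe set's level depends on its probes, so levels of different genes are not ranked. A dim reference was taken on each array as the 95th percentile of its probe sets for Bacillus transcripts, and lay between 4.57 and 4.76. Array medians were 5.54 to 5.71, and 67.0% to 74.7% of probe sets exceeded the reference. The difference between the 3' and 5' actin controls, a sign of RNA quality, was 3.50 and 2.45 on the vehicle and treated arrays of replicate 3, against 1.54 to 2.03 elsewhere. Of 9 measured markers of steroid-making luteal cells, all 9 exceeded the reference in every vehicle array, STAR among them at 10.97, 11.48 and 10.54. So did 12 of 13 macrophage, 10 of 11 endothelial, 6 of 6 pericyte and smooth muscle, 9 of 9 fibroblast and 4 of 5 T and NK cell markers.

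Known LXR targets rose with the treatment. MYLIP, SREBF1, NR1H3 (LXR alpha) and LPCAT3 rose by 2.39, 1.49, 1.24 and 1.07 on the log2 scale (limma adjusted p at most 0.0015, 3 of 3 pairs each). SREBF1 did not pass without the variance trend, and without the replicate block none of these 4 did. ABCA1, whose annotated gene number is not in the current gene table, differed by 0.47 (adjusted p = 0.88). It was higher in 3 of 3 pairs (unadjusted p = 0.0046 in limma), and lay 0.42 to 1.01 above the dim reference in the vehicle arrays.

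Among the 9 genes, 7 were above the dim reference in all 3 vehicle arrays on at least 1 probe set, and none changed detectably with T0901317. PPARD, PPARG, NR1I2, NR1H4, NR0B2, RARA and VDR were present by this measure, on 13 of the 18 probe sets, and 64.9% of all probe sets met it. The share of all genes with at least 1 such probe set was not taken. PPARGC1A was below the reference throughout and PPARA lay at it. Against the brightest Bacillus probe set of each array in place of the 95th percentile, 9 probe sets of PPARD, PPARG, NR1H4, RARA and VDR remained above, so the presence of NR1I2 and NR0B2 depends on that choice. In bulk samples a low level from few cells of a type cannot be told apart from little RNA per cell.

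**Figure D1:**
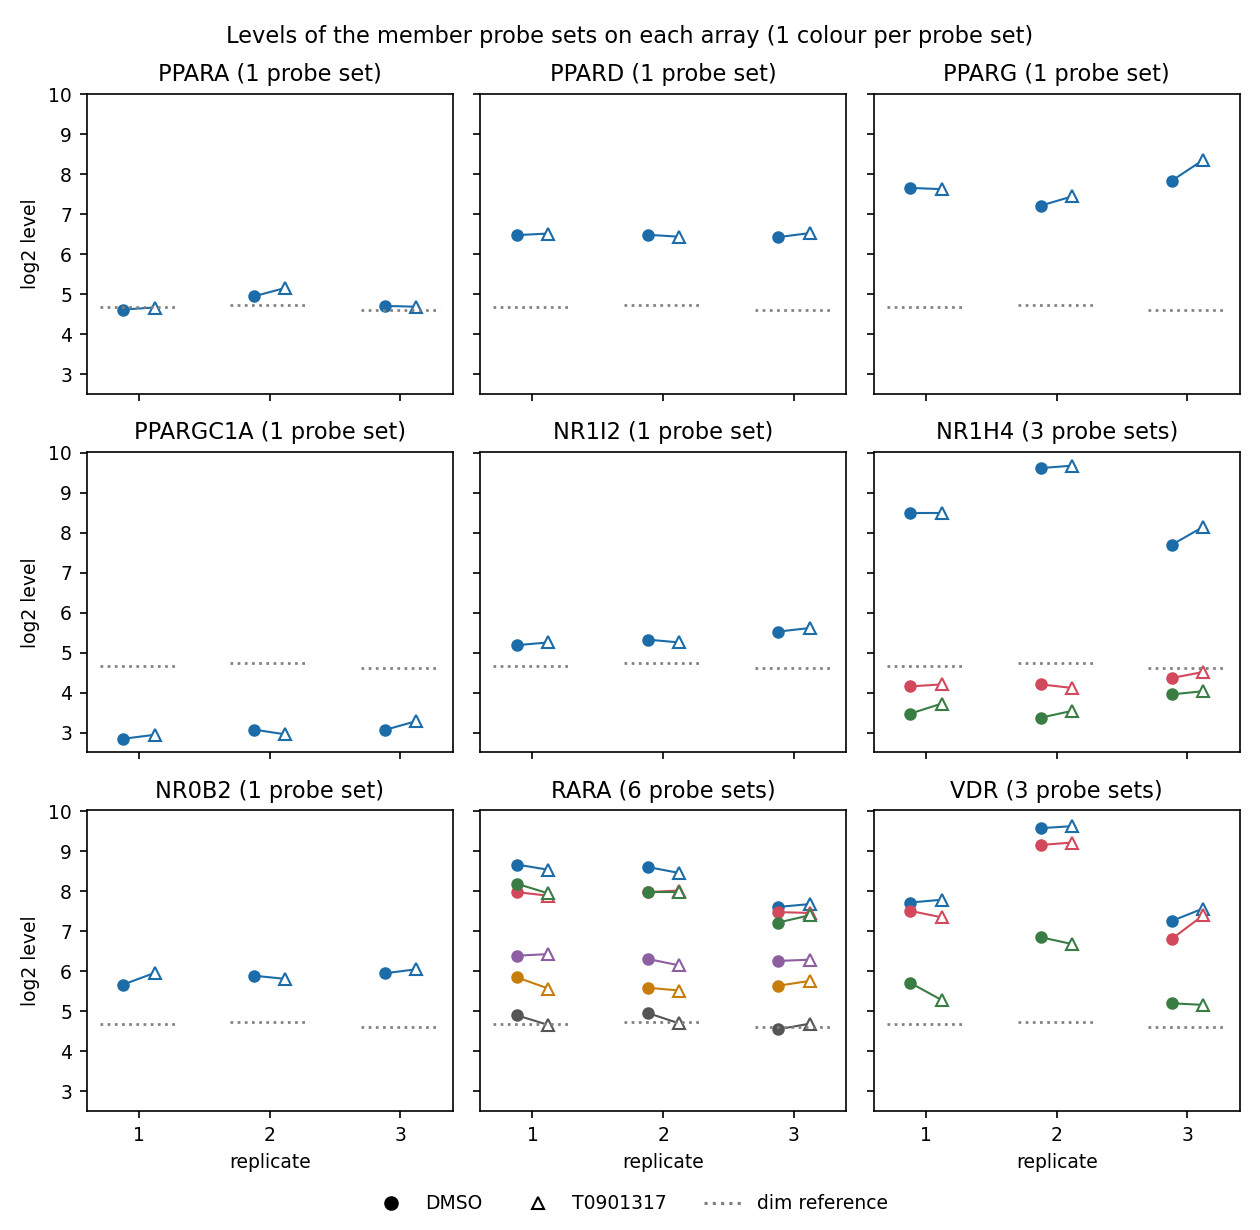
Log2 levels (vertical axis) of the 18 probe sets of the 9 genes by replicate (horizontal axis); filled circles are vehicle arrays, open triangles T0901317 arrays, lines join a pair, colours are probe sets and dotted lines the dim reference, averaged over the pair. Levels of VDR and of the bright NR1H4 probe set are highest in replicate 2 with either treatment, and the lines within pairs are short beside those differences.

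The 3 fatty acid receptors differed in how well they were measured. PPARA, which drives fatty acid oxidation in liver and other tissues, read 4.62, 4.95 and 4.71 with DMSO in replicates 1, 2 and 3, and 4.67, 5.16 and 4.69 with T0901317 (probe set MmuSTS.2286.1.S1_at). These values straddle the dim reference, which 2 of 3 vehicle arrays exceeded, and the groups overlap. Its change was 0.08 ± 0.13 (limma's SE, n = 3 pairs; 95% interval -0.20 to 0.36; adjusted p = 1). Here and below, the SE and the p come from limma's spread pooled over probe sets, with p-values adjusted over all 52766.

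PPARD, the PPAR found in most tissues, was the steadiest member. It read 6.48, 6.49 and 6.43 with DMSO and 6.52, 6.44 and 6.53 with T0901317 (MmugDNA.21567.1.S1_at). All 6 values lie within 0.10 of each other, and 98.4% of genes had a vehicle range at least as large as its 0.06. The change was 0.03 ± 0.11 (95% interval -0.22 to 0.28; adjusted p = 1).

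PPARG, best known as the master regulator of fat cells and also active in macrophages and ovarian cells, had the largest difference among the members. It read 7.66, 7.22 and 7.84 with DMSO and 7.63, 7.45 and 8.36 with T0901317 (MmuSTS.2287.1.S1_at). The pairs differed by -0.03, 0.23 and 0.52, so the difference came mainly from replicate 3, and the groups overlap. The mean was 0.24 ± 0.12, or 1.18-fold with a 95% interval of 0.985 to 1.41 (unadjusted p = 0.069, adjusted p = 1 in limma). Without replicate 3 it was 0.10, without replicate 1 it was 0.38, and with the 3' to 5' difference as a covariate it was 0.13. The median of the macrophage markers differed by -0.01, -0.01 and 0.10 in the 3 pairs, and the mean 3' to 5' difference of the controls was 1.89 and 1.31 on the arrays of replicate 3. The part of RNA quality in the PPARG values was not tested beyond that covariate.

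PPARGC1A encodes PGC-1 alpha, a coactivator of PPARs and other receptors that drives mitochondrial genes. It read 2.85, 3.08 and 3.07 with DMSO and 2.95, 2.96 and 3.29 with T0901317 (MmuSTS.1237.1.S1_at). All values are below the dim reference, by 1.5 to 1.78 in the vehicle arrays, so no level can be given from this probe set. The difference of 0.06 ± 0.12 therefore says little about the gene.

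**Figure D2:**
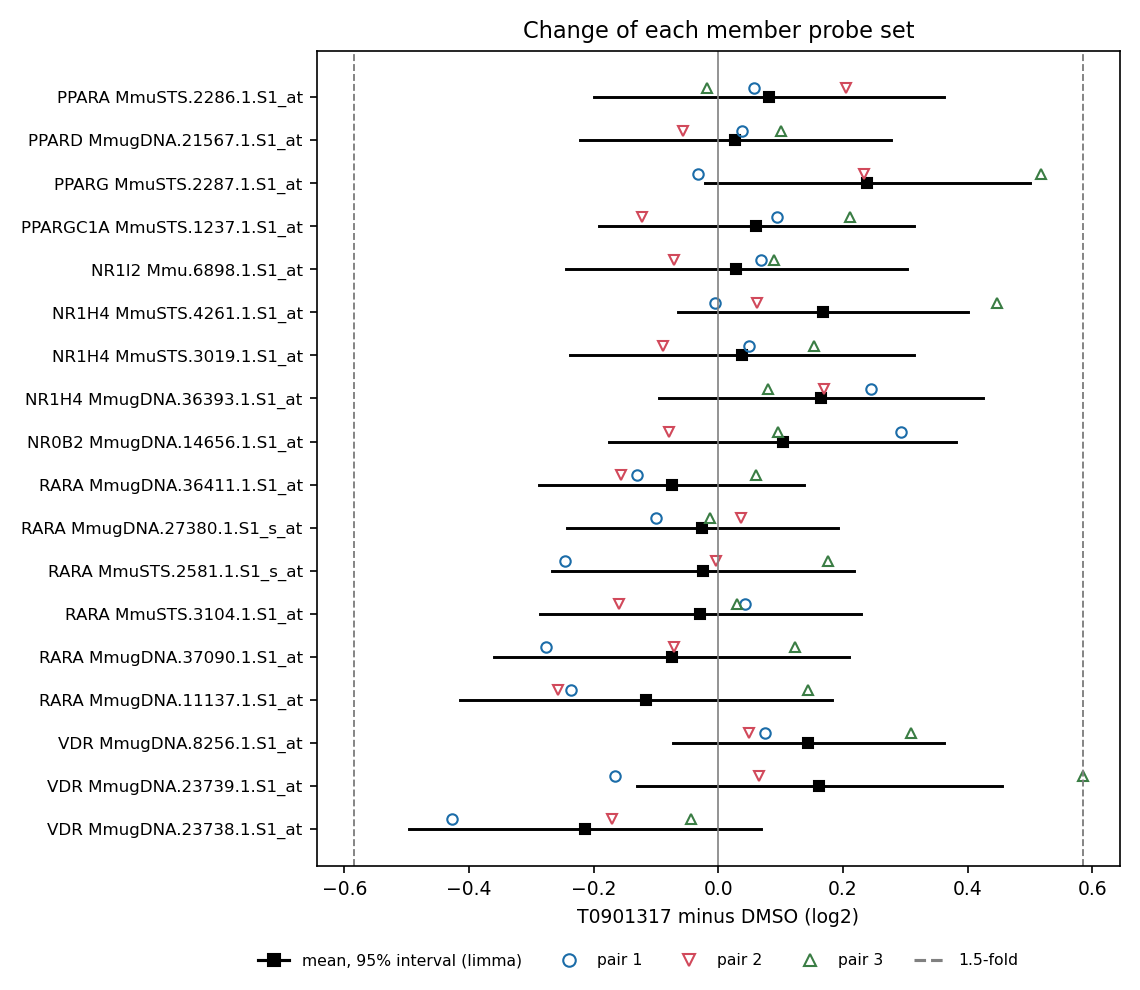
T0901317 minus DMSO on the log2 scale (horizontal axis) for the 18 probe sets (vertical axis); squares are means with limma's 95% interval, open symbols the 3 pairs, and dashed lines a 1.5-fold change. Every interval holds 0 and lies inside the dashed lines; PPARG has the largest mean, 0.24, and a VDR probe set the lowest, -0.21.

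The xenobiotic receptor was near the floor of what the arrays read. NR1I2 (PXR), which induces drug-metabolising enzymes in liver and gut, read 5.19, 5.33 and 5.53 with DMSO and 5.26, 5.26 and 5.62 with T0901317 on its 1 probe set. It exceeded the dim reference by 0.56 to 0.96 in the vehicle arrays, and the groups overlap. The change was 0.03 ± 0.13 (95% interval -0.24 to 0.30; adjusted p = 1).

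The presence of FXR rests on 1 of 3 probe sets. The bright probe set of NR1H4 read 8.49, 9.62 and 7.70 with DMSO and 8.49, 9.68 and 8.15 with T0901317 (MmuSTS.4261.1.S1_at). The other probe sets stayed below the dim reference on all 6 arrays, at 4.12 to 4.52 (MmuSTS.3019.1.S1_at) and 3.38 to 4.04 (MmugDNA.36393.1.S1_at). They do not repeat the high value of replicate 2, which was the highest on the bright probe set alone, while both read highest in replicate 3. Which probe set reports the gene faithfully cannot be settled from these values.

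The change of the bright NR1H4 probe set was 0.17 ± 0.11 (95% interval -0.06 to 0.40; adjusted p = 1), from pairs at -0.0053, 0.06 and 0.45. Without replicate 3 it was 0.03. The dim ones differed by 0.04 ± 0.13 and 0.16 ± 0.12. The last of these was above 0 in 3 of 3 pairs, which 23.2% of all probe sets were in one direction or the other.

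NR0B2 encodes SHP, an orphan receptor without a DNA-binding domain that FXR induces and that represses other receptors, so its level is a common readout of FXR. It read 5.67, 5.89 and 5.95 with DMSO and 5.96, 5.81 and 6.05 with T0901317 (MmugDNA.14656.1.S1_at). The values exceeded the dim reference by 1.04 to 1.38 in the vehicle arrays, and treated and vehicle values overlap. The pairs differed by 0.29, -0.08 and 0.10, with a mean of 0.10 ± 0.13 (95% interval -0.18 to 0.38; adjusted p = 1). Without replicate 1 the mean was 0.0084.

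RARA, which turns retinoic acid into changes in transcription, was read by 6 probe sets, 5 of them above the dim reference. The brightest read 8.67, 8.61 and 7.61 with DMSO and 8.54, 8.46 and 7.68 with T0901317 (MmugDNA.36411.1.S1_at). Replicate 3 was lowest under either treatment, and the groups overlap. The change was -0.08 ± 0.10 (95% interval -0.29 to 0.14; adjusted p = 1).

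The other RARA probe sets did not all share that order of replicates. MmugDNA.27380.1.S1_s_at read 7.46 to 8.02 over the 6 arrays and MmuSTS.2581.1.S1_s_at 7.22 to 8.19, both lowest in replicate 3. These have names of the kind that can match several transcripts. MmuSTS.3104.1.S1_at lay at 6.15 to 6.43 and MmugDNA.37090.1.S1_at at 5.52 to 5.85, while MmugDNA.11137.1.S1_at, at 4.55 to 4.96, straddled the reference. Of these last 3, MmugDNA.37090.1.S1_at was lowest in replicate 2 with either treatment, and the others were lowest in replicate 3 with DMSO but not with T0901317. All 6 mean changes were below 0, between -0.12 and -0.02, and none passed. They read 1 gene in the same RNA and are not separate evidence, and 4 of the 6 turned above 0 under at least 1 other treatment of the data.

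VDR, the receptor of active vitamin D, varied most between replicates. Its brightest probe set read 7.72, 9.58 and 7.26 with DMSO and 7.79, 9.63 and 7.57 with T0901317 (MmugDNA.8256.1.S1_at). The next read 7.51, 9.16 and 6.81 with DMSO and 7.35, 9.22 and 7.40 with T0901317 (MmugDNA.23739.1.S1_at). The dimmest read 5.71, 6.85 and 5.2 with DMSO, then 5.28, 6.68 and 5.16 with T0901317 (MmugDNA.23738.1.S1_at). Unlike the probe sets of NR1H4, all 3 had replicate 2 highest under both treatments.

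With T0901317 the mean differences of the VDR probe sets did not share a sign. The brightest differed by 0.14 ± 0.10 (95% interval -0.07 to 0.36), above 0 in 3 of 3 pairs. The next differed by 0.16 ± 0.13 (-0.13 to 0.46), with pairs from -0.17 to 0.59, and by -0.05 without replicate 3. The dimmest differed by -0.21 ± 0.13 (-0.50 to 0.07), below 0 in 3 of 3 pairs. None passed (limma adjusted p = 1 for each), so the sign of any VDR response is not settled by these probe sets.

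Over the 18 probe sets, 0 passed limma's adjusted p threshold of 0.05 and 0 had an unadjusted p under 0.05. Over all probe sets tested 0.0853% were called, and 3.72% had an unadjusted p under 0.05, so a count of 0 among 18 is close to what the background gives. The same sign in all 3 pairs was seen on 3 of the 18, against 23.2% of all probe sets. By their representative probe sets, the brightest of each gene, 8 of 9 genes had a mean above 0 and 1 below, with a median of 0.08 beside -0.02 over all genes. The share of all genes above 0 was not taken. The 8 include PPARGC1A, below the dim reference, PPARA, at it, and PPARD and NR1I2, whose signs turned in other fits. Only 1 of the 9 genes moved the same way in all 3 pairs, against 25.2% of all genes. In the main fit each of the 18 intervals lay within a 1.5-fold change either way, with half-widths of 0.21 to 0.30 on the log2 scale. Not all did in other fits. The PPARG interval reached 0.65 without replicate 1, and that of the brightest VDR probe set ran from -1.59 to 1.88 without the block. Intervals of probe sets at or below the dim reference do not bound the change of their genes.

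Differences between replicates were larger than those between treatments on most of these probe sets. The range over the 3 vehicle arrays exceeded every pair difference on 14 of the 18 probe sets. The same count over all probe sets was not made, so 14 of 18 cannot be read as particular to these receptors. Over all genes the median vehicle range was 0.46, beside a median size of the mean change of 0.07. A mean change is not the largest pair difference used for the members, so these medians do not replace that count. The vehicle range was 2.32 on the brightest VDR probe set, and 0.863% of genes had one at least as large. It was 1.92 for the bright NR1H4 probe set (1.89% of genes) and 1.05 for the brightest of RARA (11.4%), beside a median of 0.46 over all genes. PPARA, NR1I2 and NR0B2, with ranges of 0.28 to 0.34, varied less than the median gene.

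**Figure D3:**
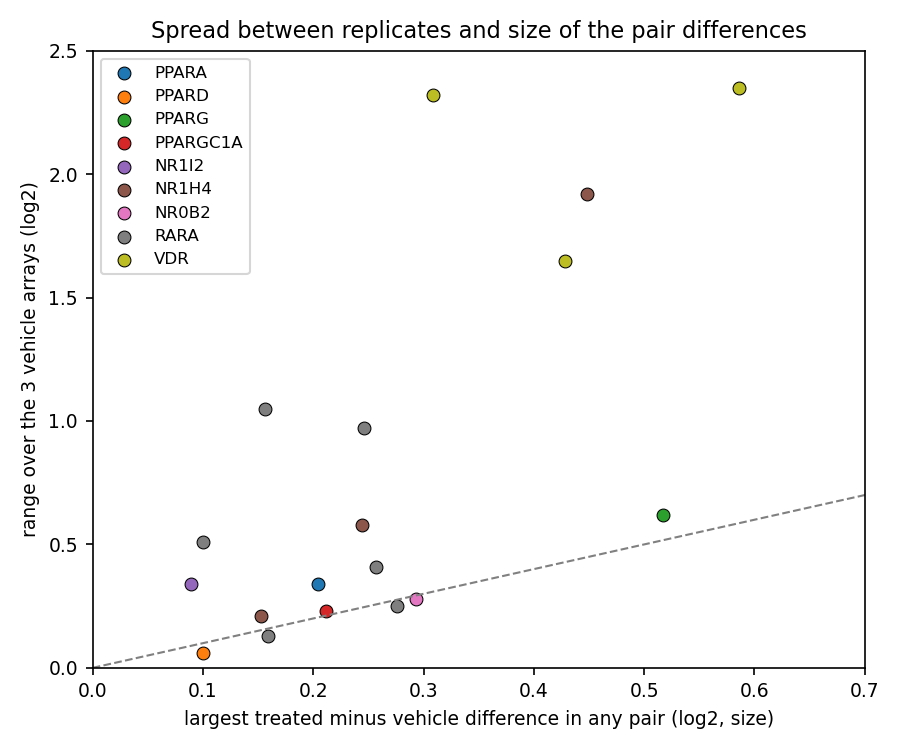
Range over the 3 vehicle arrays (vertical axis, log2) against the largest difference within a pair, whatever its sign (horizontal axis, log2), for each of the 18 probe sets, coloured by gene; equal values lie on the dashed line. The 3 VDR probe sets and the bright one of NR1H4 stand at 1.65 to 2.35, far above the line, while PPARD lies lowest at 0.06.

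Cell type markers differed between replicates too. Among the vehicle arrays the fibroblast markers had a median level of 8.18 in replicate 1, 8.49 in replicate 2 and 7.78 in replicate 3, and that of the endothelial markers 6.92, 7.26 and 6.61, the same order as VDR and the bright NR1H4 probe set. Macrophage markers had 7.13, 8.81 and 8.84, and T and NK cell markers 7.15, 7.81 and 8.96, which is another order. Markers of steroid-making cells had 7.41, 6.97 and 6.80. On the linear scale the summed fibroblast markers ran from 8720 to 19200 in the vehicle and 9200 to 18400 in the treated arrays, and the endothelial from 1290 to 2240 and 1580 to 2380. The summed macrophage markers ran from 4730 to 11800 in the vehicle and 4360 to 11300 in the treated arrays. The part of cell mixture in the receptor levels was not tested.

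The genes whose profiles lay nearest to a member over the 6 arrays were found for the 4 members that were above the reference and ranged over at least 1 log2 unit. Likeness was the mean absolute difference after each gene's own mean was removed, among 12992 genes with a settled symbol. For VDR the nearest were the mitotic cyclin CCNB2 (0.09), the bradykinin receptor BDKRB1 (0.10) and the cyclin CCNB1 (0.11). For NR1H4 they were the betaine transporter SLC6A12 (0.09), the cytokine signalling inhibitor SOCS3 (0.10) and IQCG (0.10). For RARA they were FAM199X (0.02), the matrix protein fibrillin-1, FBN1 (0.02), and the RNase P subunit POP5 (0.03). For PPARG they were PDCL2 (0.06) and HEPACAM2 (0.06), both mostly or wholly at dim levels, and RSPO1 (0.07), a WNT activator of the ovary. With 3 replicates that differ strongly, many genes can share an order, and the likeness is a description.

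No established target of the fatty acid receptors passed the test. Of 18 measured PPAR targets, 0 rose, 0 fell and 18 did not pass (limma; 6 had an unadjusted p under 0.05, beside 3.73% of all genes), where 0.177% of all genes were called, 0.113% as higher and 0.0637% as lower. Their median change was -0.10, beside -0.02 over all genes, and 12 of 18 lay below 0. Without replicate 3, 3 of the 18 fell, namely CD36, ANGPTL4 and CPT1A, the gatekeeper of mitochondrial fatty acid oxidation. With the 3' to 5' covariate 2 fell (CD36 and ANGPTL4). Calls over all 52766 probe sets were also more in these fits, at 328 and 246, against 45 in the main fit. CPT1A was higher with T0901317 only in the pair left out (pairs of -0.43, -0.25 and 0.18). Its other probe set was at -0.07 ± 0.14, above 0 in 2 of 3 pairs. Among markers of cell types, the median change was -0.15 for pericytes and smooth muscle (6 of 6 below 0), -0.12 for T and NK cells (5 of 5 below), -0.09 for steroid-making cells (6 of 9 below), -0.06 for fibroblasts (7 of 9 below), -0.01 for macrophages (7 of 13 below) and 0.12 for endothelium (9 of 11 above). None of these markers passed. Summed on the linear scale, those of pericytes and smooth muscle ran from 5270 to 7740 with DMSO and 4870 to 6730 with T0901317, and those of T and NK cells from 2830 to 6130 and 2750 to 5650. Their part in the values of the PPAR targets was not tested. The list holds carriers and enzymes of fatty acid oxidation together with lipid uptake and storage genes.

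The fatty acid transporter CD36 read 5.31, 7.90 and 6.53 with DMSO and 4.42, 6.83 and 6.12 with T0901317. Treated values were lower in each pair, by 0.90, 1.07 and 0.42, although the groups overlap. Its change was -0.79 ± 0.14 (limma adjusted p = 0.10). CD36 passed without replicate 3 (-0.98, adjusted p = 5.5e-07) and with the 3' to 5' covariate (-0.91, adjusted p = 2.9e-04). Both fits leave little of a probe set's own spread, so their p-values rest mainly on limma's spread pooled over probe sets. They are not stronger evidence than the main fit. Of the other targets, ANGPTL4, a lipase inhibitor, was at -0.30 ± 0.09 (adjusted p = 0.90) and passed in the same fits (adjusted p = 0.015 and 0.041). The other probe set of ANGPTL4 was at -0.04 ± 0.10. The other 4 with an unadjusted p under 0.05 had the same sign in 3 of 3 pairs: ACADVL, an enzyme of fatty acid oxidation, at -0.21 ± 0.08, PDK4, a kinase that restrains glucose oxidation, at -0.29 ± 0.13, the liver transcription factor CREB3L3 at -0.29 ± 0.12, and the pantetheinase VNN1 at 0.32 ± 0.12 (limma adjusted p = 1 for each). The other 3 probe sets of CREB3L3 were at -0.25 to 0.0079. The fatty acid binding protein FABP3 was at 0.35 ± 0.16, with pairs of 0.69, -0.14 and 0.49 around the dim reference.

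Genes around PGC-1 alpha had small differences, none of which passed. Of 9 measured partners and targets 0 passed (0 at an unadjusted p under 0.05), and their changes lay between -0.08 and 0.09. The extremes were NRF1, a regulator of mitochondrial genes (-0.08 ± 0.10), and PPARGC1B, the paralogue of PPARGC1A (0.09 ± 0.14). PPARGC1B, unlike PPARGC1A, was above the dim reference, at 6.72, 6.54 and 5.95 with DMSO and 6.50, 6.54 and 6.43 with T0901317.

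Targets of the receptors that T0901317 can also engage showed no call. Of 14 measured PXR targets, 10 of which were above the dim reference in every vehicle array, 0 passed and 0 had an unadjusted p under 0.05 in limma. Their median was -0.02, equal to that over all genes at this precision. The 2 largest in size, both below 0, were GSTA1, a glutathione transferase (-0.23 ± 0.14), and CYP2B6, a drug-metabolising enzyme (-0.22 ± 0.16, in pairs of -0.28, 0.26 and -0.65), and the highest was the citrate transporter SLC13A5 (0.14 ± 0.14). CYP3A4, the classic PXR target in liver, read 6.14, 5.78 and 6.92 with DMSO and 6.14, 5.87 and 6.62 with T0901317, a change of -0.07 ± 0.12 (95% interval -0.34 to 0.21). These values come from 1 of its 4 probe sets, with a name of the kind that can match several transcripts, and the other 3 were below the dim reference in every vehicle array.

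Of 10 measured FXR targets beside NR0B2, 0 passed and 0 had an unadjusted p under 0.05, and their median was -4.1e-04 with 5 above and 5 below 0; its sign turned in 6 of 12 refits. FETUB and FGB, liver-secreted proteins, had the largest differences, 0.24 ± 0.13 and 0.23 ± 0.16, both at dim levels (4.47 to 4.68 and 3.88 to 4.56 with DMSO). SLC51A and SLC51B, the subunits of the bile acid exporter that FXR induces, were at -0.14 ± 0.12 and -0.15 ± 0.14. FGF19, the gut hormone FXR induces, read 4.86, 4.91 and 5.11 with DMSO and 4.95, 4.97 and 5.09 with T0901317.

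**Figure D4:**
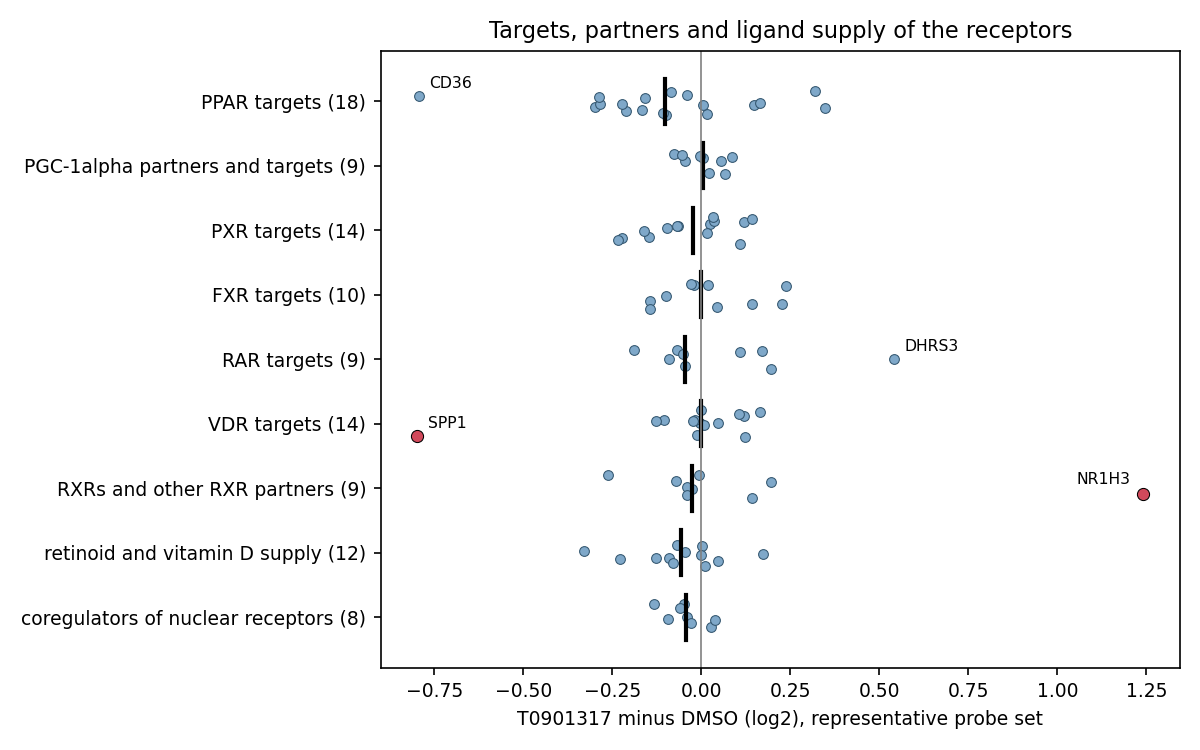
T0901317 minus DMSO on the log2 scale (horizontal axis) for the measured members of 9 lists (vertical axis, with how many were measured); each point is a gene by its representative probe set, red where limma's adjusted p was under 0.05, and black bars are medians. Only NR1H3, at 1.24, and SPP1, at -0.80, are red, and the medians lie between -0.10 and 0.01.

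No retinoid-responsive gene passed the test. Of 9 measured RAR targets 0 passed (1 at an unadjusted p under 0.05), with a median of -0.05 that was 0.03 without replicate 3 and also without dim probe sets. DHRS3, a reductase that returns retinal to retinol, had the largest difference, and read 6.63, 9.39 and 6.65 with DMSO and 7.06, 9.45 and 7.78 with T0901317. It was higher in 3 of 3 pairs, by 0.43, 0.06 and 1.13, with a mean of 0.54 ± 0.16 (unadjusted p = 0.0065, adjusted p = 1), and 0.25 without replicate 3. RARB, the retinoic acid receptor beta, differed by 0.20 ± 0.15, and lay below 0 in pair 3.

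VDR targets gave 1 call of 14. SPP1 (osteopontin), a secreted matrix protein that VDR induces in bone and that macrophages also make, fell by 0.80 ± 0.09 (limma adjusted p = 0.0041). The call was lost without the variance trend (adjusted p = 0.097), and SPP1 did not pass in the fit that had no block (adjusted p = 1). It read 8.66, 11.77 and 8.10 with DMSO and 7.91, 11.03 and 7.19 with T0901317, lower in 3 of 3 pairs by 0.75, 0.74 and 0.91. The other 13 did not pass, and the median of the list was -0.0011, with a sign that turned in 6 of 12 refits. CYP24A1, the vitamin D catabolic enzyme and the most direct VDR target, read 10.12, 9.55 and 9.47 with DMSO and 9.94, 9.61 and 9.22 with T0901317, a change of -0.13 ± 0.09 (95% interval -0.32 to 0.07).

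Among the RXRs and their remaining partners LXR alpha gave the 1 call. Of 9 measured, NR1H3 rose, 0 fell and 8 did not pass. In limma 2 had an unadjusted p under 0.05, NR1H3 and NR4A2. NR4A2 was at -0.26 ± 0.11, below 0 in 3 of 3 pairs. NR1H3 read 5.98, 7.68 and 7.42 with DMSO and 7.40, 8.70 and 8.71 with T0901317. RXRA differed by -0.04 ± 0.14 and RXRB by 0.14 ± 0.11, and the constitutive androstane receptor NR1I3, the closest relative of PXR, lay below the dim reference at 3.67 to 4.0 with DMSO. Of 12 genes of retinoid and vitamin D supply 0 passed (2 at an unadjusted p under 0.05), with ALDH1A2, which makes retinoic acid, at -0.33 ± 0.14 and the retinol dehydrogenase RDH10 at -0.23 ± 0.10. Of 8 coregulators 0 passed (0 at an unadjusted p under 0.05), with EP300 at -0.13 ± 0.09 and NCOA3 at -0.09 ± 0.08.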

How the data were processed

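The deposited table holds log2 values per probe set, made by the authors with RMA per the submitters' processing notes; no version is named, and scanner files and detection calls were not used here. RMA compresses dim signals, which understates their changes. After removal of 99 control probe sets, T0901317 minus DMSO was fitted with limma 3.58.1 in R 4.3.3, with the replicate number as a block and a variance trend. Two-sided p-values were adjusted by Benjamini-Hochberg over 52766 probe sets; with 3 pairs, the smallest two-sided p of an exact sign-flip test is 0.25. Same-numbered arrays had deviations correlated at 0.658, 0.813 and 0.830, and the pairing comes from the design text. The probe set of highest mean over the 6 arrays stood for its gene. Symbols come from the platform annotation. No coordinates are given, since no source names the array's build. The fit was also run on simulated data drawn with its own fitted variances, which cannot show how it behaves on the real arrays. Alternatives were another scaling, a filter on dim probe sets, no variance trend, a robust variance, the 3' to 5' covariate, no block and leaving out each replicate. Members and lists were chosen with earlier results of these data known. The naming rule took all member probe sets, from each list those past the threshold or else the 2 largest changes, the LXR check genes and the nearest profiles. ANGPTL4, CYP3A4, SLC51A, SLC51B, FGF19, CYP24A1, RXRA, RXRB, NR1I3, STAR, TGM2, THBD, CPT1A, ACADVL, PDK4, CREB3L3, VNN1, SLC13A5, ADIPOQ, FGA, AHSG, APOA1, APOB, LEP and SERPINA1 were named after their values were seen. So were NR4A2, CYP26A1, CRABP2, STRA6, HOXA5, CAMP, TRPV6, TRPV5, S100G, BGLAP and OSGIN1.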

Additional observations from a re-analysis of the deposited data

How the results depend on the processing

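The number of arrays limits every value, and probe sets near the dim reference can show little. No member probe set passed in any refit (0 in each). Over all probe sets 45 passed, against 0 without the replicate block (0 members there too), 27 with quantile scaling or cyclic loess, 11 without the variance trend, 246 with the 3' to 5' covariate and 35 to 328 when a replicate was left out; the cause was not tested. The median change of all probe sets was 0.0044 as deposited, -0.0014 with quantile scaling, -0.0035 with cyclic loess and -0.018 after median centring.

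The median of the PXR targets was -0.0383 with quantile scaling, -0.0469 after median centring, -0.0658 without dim probe sets, -0.0068 with the covariate and -0.0623 over the mean of all probe sets of a gene. It ran from -0.0609 to -0.00848 when a replicate was left out. That of the RAR targets was 0.0307 without dim probe sets and -0.0409 to 0.0297 when a replicate was left out. The cause was not tested.

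Signs of changes near 0 turned. With quantile scaling NR1I2 was -0.0022, NR1H4 (MmuSTS.3019.1.S1_at) -0.0060, RARA (MmugDNA.27380.1.S1_s_at) 0.0141 and RARA (MmuSTS.2581.1.S1_s_at) 0.0204. With cyclic loess these were -0.0034, -0.0060, 0.0055 and 0.0061. Leaving out a replicate gave -9.2e-04 to 0.0789, -0.0194 to 0.101, -0.0567 to 0.0117 and -0.125 to 0.086 for the same 4. It gave -0.0087 to 0.0694 for PPARD, -0.0142 to 0.153 for PPARGC1A, -0.0496 to 0.326 for VDR (MmugDNA.23739.1.S1_at), -0.174 to 0.0253 for RARA (MmugDNA.37090.1.S1_at) and -0.0646 to 0.0362 for RARA (MmuSTS.3104.1.S1_at). CD36 also passed after median centring, at the threshold (adjusted p = 0.05 when rounded).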

Other observations

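Of the listed genes that respond to retinoids or vitamin D, some were, like VDR, highest in replicate 2 and others were not. In the vehicle arrays of replicates 1, 2 and 3, DHRS3 read 6.63, 9.39 and 6.65, RARB 5.75, 7.76 and 5.77, and SPP1 8.66, 11.77 and 8.10. TGM2, a transglutaminase that retinoic acid induces, read 7.06, 7.89 and 7.15. Replicate 2 was highest for each of these again with T0901317. CYP24A1 was not highest there, at 10.12, 9.55 and 9.47, nor was THBD, the thrombomodulin gene, at 9.97, 9.49 and 9.67. Among the listed RAR targets, CYP26A1, CRABP2, STRA6 and HOXA5 were highest in replicate 3 of the vehicle arrays. The VDR targets CAMP, TRPV6, TRPV5, S100G, BGLAP and OSGIN1 were not highest in replicate 2 of the vehicle arrays either. The share of all genes highest in replicate 2 was not taken. These genes were picked after their values were seen, so no pattern of either list is read from them.

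Markers of fat cells and hepatocytes, where PPARG, PXR and FXR are best known, were measured for 7 of 12 listed genes. Of the 7, 5 were above the dim reference in every vehicle array on the brightest probe set of the gene. Over all probe sets, not chosen for brightness, 64.9% were, and the share of genes by brightest probe set was not taken. ADIPOQ (adiponectin) read 8.60, 8.07 and 7.84 with DMSO and differed by 0.0062 ± 0.10. The hepatocyte genes FGA, at 3.39 to 4.01 with DMSO, and AHSG, at 4.34 to 4.94, did not exceed the reference in every vehicle array. APOA1, at 7.96 to 8.44, APOB, at 5.81 to 5.89, and the fat cell hormone LEP, at 6.19 to 6.36, did. SERPINA1, made by hepatocytes and myeloid cells, read 9.48, 10.98 and 10.16 with DMSO and was higher with T0901317 in 3 of 3 pairs, by 0.27 ± 0.09 (unadjusted p = 0.0094, limma adjusted p = 1).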
